A study of Mus musculus with 12 samples.

Results

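The subject is conventional CD4+ T cells (Tconv) from the spleen of C57BL/6 mice that carried a tumour, set against the same cells from normal mice and described across all genes. The members are 4 of the 12 RNA sequencing libraries of the series: 2 from tumour-bearing mice (TBM Tconv) and 2 from normal mice (NM Tconv), chosen by their labels. Tumour-bearing mice had received 500000 TC-1 cells through a tail vein 3 weeks before the tissue was taken, and the labels call the other mice normal. TC-1 cells, a line made from mouse lung epithelium, grow as a tumour when transplanted. In both groups CD4+ cells were first enriched by negative selection, and the GFP-negative CD4+ cells were then sorted as Tconv, while GFP-positive cells were the regulatory T cells (Treg). Every group therefore comes from mice that carry GFP in Treg, but the labels do not say which promoter drives it, nor the age, the sex or any pooling of the mice. Libraries 1 and 2 of a group are numbered as in the sample titles. The labels do not state that they come from separate mice, so a p value measures the spread between these samples, which may be technical.

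Naive Tconv circulate between blood, spleen and lymph nodes under the control of homing receptors and of the transcription factors that keep those receptors on. Antigen and cytokines move a Tconv into effector programmes, known as T helper and T follicular helper programmes, in which costimulatory and inhibitory surface receptors are switched on. Interleukin 2 and related cytokines signal through receptors that share a gamma chain and through STAT factors, which also switch on feedback inhibitors of the same pathway. Glucocorticoids, sterols and interferons act on T cells through their own sets of target genes, each of which can be read as a group.

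Total counts were 18624132 and 21644530 in TBM Tconv, against 20019956 and 21456749 in NM Tconv. The sort fitted its label for the defining markers. Foxp3, the Treg transcription factor, had 13.3 and 16.8 CPM in TBM Tconv, against 18.1 and 19.6 CPM in NM Tconv, while the 4 spleen Treg libraries held 989 to 1042 CPM. Cd4 had 1318 and 1458 CPM in TBM Tconv, against 1551 and 1507 CPM in NM Tconv. Some single markers of other cells were at or near 0: Cd8a had 2 to 7 counts per library, Ms4a1 of B cells 0 counts, Ncr1 of natural killer cells 4 to 15, Lyz2 of macrophages 3 to 12, and Hbb-bt of red cells 0. Other markers were not: Cd8b1 had 415 to 677 counts per library. Over whole lists, 12 natural killer markers summed to 915 to 2233 counts per library and 23 macrophage and monocyte markers to 6310 to 8448. The macrophage and monocyte sum was 339 and 371 CPM in TBM Tconv, against 379 and 394 CPM in NM Tconv. Of these 23 markers, 10 to 15 had 3 counts or fewer in each of these libraries, so the sum came from the other members. In the spleen Treg libraries the same list summed to 676 to 746 CPM. Of the 12 natural killer markers, 4 to 6 had 3 counts or fewer in each Tconv library. All levels here are CPM, the counts scaled to a common library total with TMM factors (sums over marker lists are CPM without these factors), and all changes are log2 fold changes, TBM over NM, ± SE. A gene is called when its adjusted p is under 0.05 in edgeR's quasi-likelihood test.

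The spleen Tconv transcriptome of tumour-bearing mice differed from that of normal mice in 2328 of 13509 tested genes (17.2%). Of these, 1316 genes were higher in TBM (9.74% of tested genes) and 1012 were lower (7.49%). The increases were larger: 419 called genes were at least 2-fold higher and 18 at least 2-fold lower. In all 2328 called genes both TBM libraries lay on one side of both NM libraries, which was also true of 61.8% of all tested genes. With 1 library left out, 1045 genes were called without TBM library 1, 1450 without TBM library 2, 985 without NM library 1 and 751 without NM library 2. Scaling by library size alone left 2239 calls but moved the split to 1757 higher and 482 lower, so 78.5% of the calls were higher in place of 56.5%. In RNA from a bulk sort, more cells that carry a transcript and more transcript per cell cannot be told apart.

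Rankings of genes here pass over gene models, immunoglobulin and T cell receptor segments, small RNAs and pseudogenes. The largest increase among well-counted genes (mean of at least 3 log2 CPM over the 4 libraries) was in Neb, which encodes the giant muscle thin-filament protein nebulin (chromosome 2, 52136647 to 52378474, mm10). It had 97.2 and 90.7 CPM in TBM Tconv, against 1.27 and 1.86 CPM in NM Tconv, a change of 5.89 ± 0.24 (adjusted p = 4.7e-08). Ston1, an endocytic adaptor (chromosome 17, 88597684 to 88662586), followed with 86.6 and 88.8 CPM in TBM Tconv, against 6.01 and 4.77 CPM in NM Tconv (4.03 ± 0.19). Coro2a, a coronin-family actin-binding protein (chromosome 4, 46536937 to 46602202), had 161 and 162 CPM in TBM Tconv, against 15.5 and 12.7 CPM in NM Tconv (3.52 ± 0.15, adjusted p = 4.7e-08). In each of these 3 genes the 2 TBM libraries were close to each other and many times above both NM libraries. Sytl3, a Rab27-binding protein of vesicle transport, changed by 2.79 ± 0.17, the zinc finger gene Zscan10 by 2.62 ± 0.20, and Drc1, a dynein regulatory subunit of cilia, by 2.44 ± 0.14. The glucocorticoid-induced factor Klf9, the phosphatase gene Dusp1, the AP-1 subunit Jun, the inhibitory receptor Tigit, the costimulatory receptor Tnfrsf4 and Serpina3f, a serine protease inhibitor, completed the 12 largest, at 2.07 to 2.57. All of these were called with each of the 4 libraries left out in turn, except Jun, which is described with the immediate early genes.

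Some genes that were nearly silent in normal spleen Tconv were clearly counted in tumour-bearing mice. Trnp1, a nuclear protein known from neural progenitors, had 782 and 828 counts in TBM Tconv, against 1 and 0 counts in NM Tconv. Shisa7, an auxiliary subunit of neurotransmitter receptors, had 283 and 275 counts in TBM Tconv, against 8 and 9 counts in NM Tconv (5.00 ± 0.34), and the secreted semaphorin Sema3f 149 and 144 counts in TBM Tconv, against 3 and 6 counts in NM Tconv (4.97 ± 0.48). Cables1, Syt6 and Ier5l were higher by 4.63, 4.48 and 3.98, and all 6 were called with any 1 library left out. Plaur, the urokinase receptor, had 19.5 and 15.3 CPM in TBM Tconv, against 1.63 and 2.05 CPM in NM Tconv (3.23 ± 0.22). Rapgef3, an exchange factor for Rap proteins that is activated by cyclic AMP, had 49 and 62 counts in TBM Tconv, against 2 and 1 counts in NM Tconv. Drug exporter gene Abcb1a (1.78 ± 0.14), cold-inducible RNA-binding protein Cirbp (1.24 ± 0.09) and Ifngr1, a chain of the interferon gamma receptor (1.36 ± 0.11), also rose. Ifngr1 had 450.1 and 549.7 CPM in TBM Tconv, against 177 and 211 CPM in NM Tconv.

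Decreases were smaller, and Cyp51 and Msmo1, both among the 12 largest in well-counted genes, serve cholesterol synthesis. Cyp51, lanosterol demethylase (chromosome 5, 4081145 to 4104746), had 37.3 and 43.9 CPM in TBM Tconv, against 90.7 and 87.8 CPM in NM Tconv (−1.13 ± 0.13, adjusted p = 0.000178). The photoreceptor channel subunit Cnga1 fell by the largest amount among well-counted genes, to 11.8 and 10.5 CPM in TBM Tconv, against 26.96 and 24.6 CPM in NM Tconv (−1.21 ± 0.17). Id3, an inhibitor of E-protein transcription factors, had 25.9 and 26.3 CPM in TBM Tconv, against 51.01 and 49.9 CPM in NM Tconv (−0.95 ± 0.25), and the lysosomal protease Lgmn had 19.5 and 21.4 CPM in TBM Tconv, against 37.8 and 38.8 CPM in NM Tconv (−0.90 ± 0.24). Prdm16, Fam212b, Nacc2, Msmo1, Rpl31 and Hist2h2be fell by between 0.88 and 1.03. In the band of low levels the largest decreases were in Fcgr3, Hist1h2bc, Tppp, Idi1, Tmprss13 and Trpm1, at −1.45 to −1.91. Prdm16 was not called without TBM library 1 or NM library 1 (smallest change −0.96), while Rpl31 was not called without NM library 2 (smallest change −0.75). Id3, Lgmn, Fcgr3 and Tppp kept no call without any 1 of the 4 libraries, with smallest changes of −0.94, −0.84, −1.66 and −1.30. Idi1 was not called without TBM library 1, TBM library 2 or NM library 1 (smallest change −1.21) and Tmprss13 not called without TBM library 1, TBM library 2 or NM library 2 (smallest change −1.44).

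Of the 33 pathway lists in the plot of list shares, checkpoint receptors, Treg-associated genes, glucocorticoid-responsive genes and clock genes held the largest shares of increases, and sterol, chaperone and interferon gamma-inducible genes the largest shares of decreases. Over all tested genes the median change was 0. Shares below are read against 9.74% higher and 7.49% lower, but these shares differ with gene length and level, as given with the ribosomal genes.

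**Figure D1:**
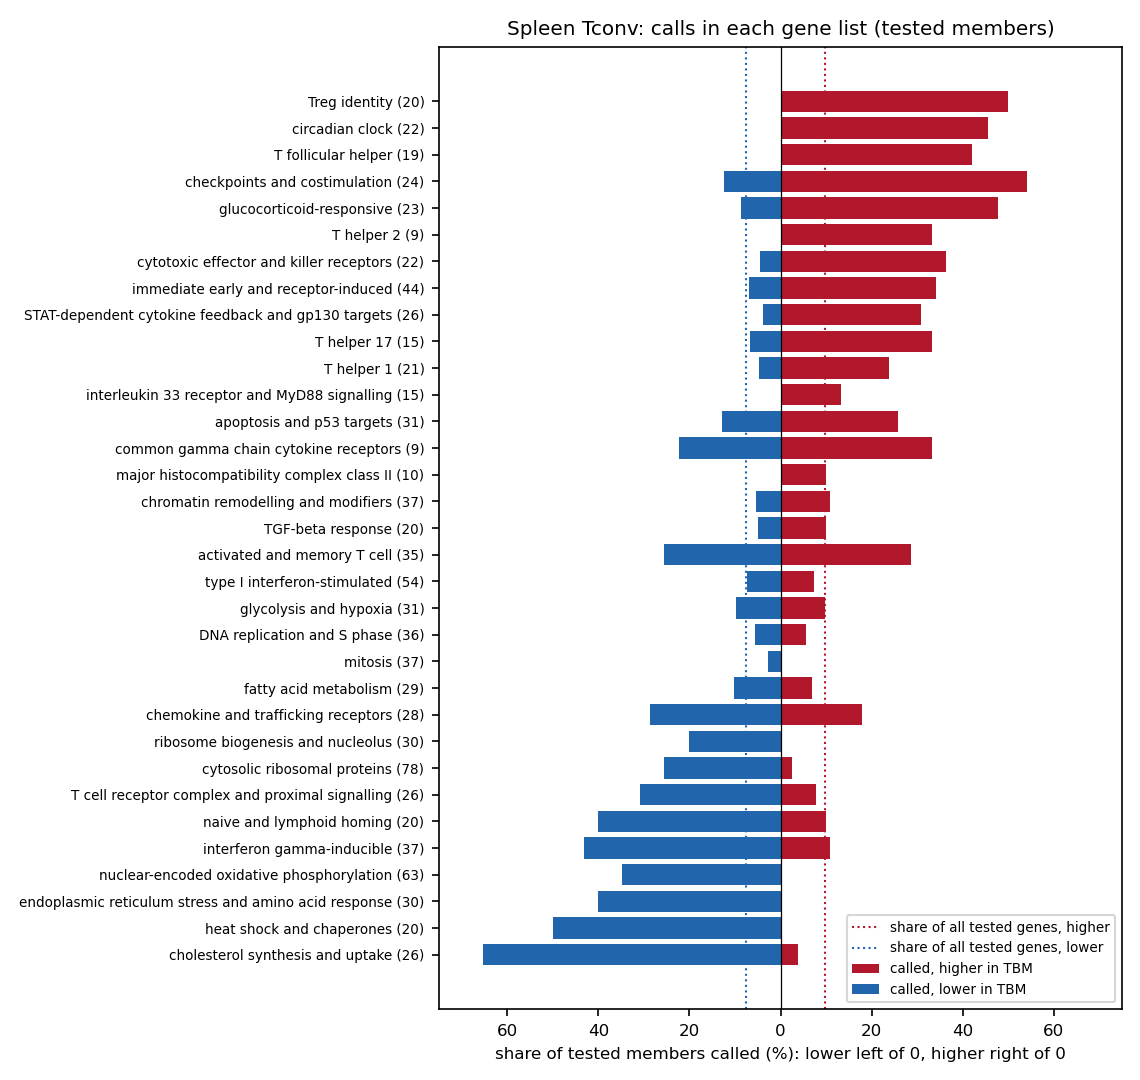
Each row is 1 gene list, with its number of tested members in parentheses. The bar to the right of 0 is the share of tested members called higher in TBM (%) and the bar to the left the share called lower (%), with dotted lines at the shares over all tested genes. Cholesterol synthesis and uptake has the longest bar to the left (65.4%) and checkpoints and costimulation the longest to the right (54.2%).

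The alpha and beta chains of the interleukin 2 receptor were higher in TBM Tconv and the gamma chain was lower, with 8 of 26 feedback genes of cytokine signalling higher. Il2ra (CD25, the alpha chain of the receptor) had 42.5 and 65.9 CPM in TBM Tconv, against 16.00 and 15.6 CPM in NM Tconv, a change of 1.78 ± 0.16 (adjusted p = 3.08e-05). Il2rb, the beta chain that interleukin 15 also uses, had 416 and 631 CPM in TBM Tconv, against 208 and 209 CPM in NM Tconv (1.33 ± 0.16). In both genes library 2 was the higher of the TBM pair, and both libraries were above NM. Il7r, the interleukin 7 receptor, had 1566 and 1716 CPM in TBM Tconv, against 1001 and 1015 CPM in NM Tconv (0.70 ± 0.12), while Il2rg, the shared gamma chain, was lower at 838 and 919.9 CPM in TBM, against 1156 and 1156 CPM in NM (−0.40 ± 0.08) and Il21r, the interleukin 21 receptor, was lower too (−0.32 ± 0.07). Il2rg was not called without TBM library 1, NM library 1 or NM library 2 (smallest change −0.33), and Il21r was not called without TBM library 1 or NM library 2 (smallest change −0.28). Of the 26 members tested in the list of STAT-dependent cytokine feedback genes, 8 were higher and 1 was lower, with a median of 0.13.

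Among these, Cish, which blocks STAT5 signalling (chromosome 9, 107296026 to 107302784), had 82.3 and 83.8 CPM in TBM Tconv, against 25.7 and 27.3 CPM in NM Tconv (1.65 ± 0.14, adjusted p = 2.39e-05). Socs1, a feedback inhibitor of Janus kinases, had 80.4 and 95.5 CPM in TBM Tconv, against 28.8 and 31.2 CPM in NM Tconv (1.55 ± 0.12), and Socs2 had 9.33 and 16.9 CPM in TBM Tconv, against 2.55 and 2.86 CPM in NM Tconv (2.28 ± 0.24). Bcl2, the survival gene (chromosome 1, 106538178 to 106714274), had 844 and 805 CPM in TBM Tconv, against 259.8 and 258 CPM in NM Tconv, a change of 1.67 ± 0.06 (adjusted p = 3.11e-08). The pairs of libraries were nearly equal in Cish and Bcl2 and spread more widely in Socs2. Il6st, the gp130 chain of the interleukin 6 receptor, was the member that was lower. With a library left out, 5 to 7 members of the list were higher, and Cish, Socs1, Socs2 and Bcl2 were called each time.

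The promoter window of Cish is shown because STAT5 is known to switch this gene on and because the window holds more than 1 site of the STAT type. Capitals mark the gamma-activated site, searched as TTCNNNGAA, which reads the same on both strands. Windows run from 250 bases before to 50 bases after the transcript start in RefSeq (GRCm38.p6).
Cish (chr9:107296409-107296708, plus strand): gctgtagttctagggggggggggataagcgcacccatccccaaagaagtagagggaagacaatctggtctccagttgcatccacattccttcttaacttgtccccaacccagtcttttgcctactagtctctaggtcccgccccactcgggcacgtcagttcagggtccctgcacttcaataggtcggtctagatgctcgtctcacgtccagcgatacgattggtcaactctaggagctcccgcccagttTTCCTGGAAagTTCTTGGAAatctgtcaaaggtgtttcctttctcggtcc
The 7 higher members of the feedback list with a window have 8 windows, of which 2 (of Cish and Socs3) held this motif, and 8.3% of all 32841 windows did. The Cish window has 2 such sites and the Socs3 window has 1.

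Inhibitory and costimulatory receptors rose broadly. Of 24 tested members, 13 were higher and 3 lower, with a median of 0.71; with 1 library left out, 11 to 12 were higher. Ctla4, the inhibitory receptor for B7 ligands, had 49.9 and 51.9 CPM in TBM Tconv, against 17.7 and 13.5 CPM in NM Tconv (1.70 ± 0.13, adjusted p = 1.14e-05). Pdcd1, which encodes PD-1, had 72.3 and 96.5 CPM in TBM Tconv, against 30.4 and 23.2 CPM in NM Tconv (1.66 ± 0.18), and Tigit had 40.97 and 51.8 CPM in TBM Tconv, against 12.2 and 7.73 CPM in NM Tconv (2.22 ± 0.24). Tnfrsf4 (OX40) had 45.3 and 54.1 CPM in TBM Tconv, against 12.2 and 10.97 CPM in NM Tconv (2.10 ± 0.13) and Tnfrsf18 (GITR) had 114 and 124 CPM in TBM Tconv, against 49.1 and 50.2 CPM in NM Tconv (1.27 ± 0.10). The 2 groups did not overlap in any of these 5 genes, as in every called gene and 61.8% of all tested genes. Lag3 had 41.8 and 51.03 CPM in TBM Tconv, against 22.4 and 12.6 CPM in NM Tconv (1.41 ± 0.38) and was not called without TBM library 1, TBM library 2 or NM library 2 (smallest change 1.05). Entpd1 (CD39) and Nt5e (CD73), which make extracellular adenosine, and its receptor gene Adora2a are higher members of the list, at 1.07 ± 0.17, 1.09 ± 0.09 and 0.73 ± 0.11. Nt5e had 136 and 152 CPM in TBM Tconv, against 71.8 and 64.2 CPM in NM Tconv. Without TBM library 2 the change of Entpd1 was 0.69 and it was still called. The 3 members that were lower were the T cell costimulator Cd28 (−0.38 ± 0.07), Cd40lg and the gene for the inhibitory ligand VISTA, listed under its older symbol 4632428N05Rik.

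Part of the genes associated with Treg rose in these Foxp3-low cells. In the Treg identity list 10 of 20 members were higher and none lower (median 0.80), and 8 to 10 were higher with 1 library left out. Foxp3 itself was not among them (−0.32 ± 0.14, adjusted p = 0.141). Ikzf2, which encodes the transcription factor Helios, had 57.5 and 60.1 CPM in TBM Tconv, against 34.7 and 26.5 CPM in NM Tconv (0.95 ± 0.11). Il10, an inhibitory cytokine, had 45 and 38 counts in TBM Tconv, against 6 and 4 counts in NM Tconv (3.00 ± 0.63), a low level that was not called without TBM library 1 or NM library 2 (smallest change 2.69). Gpr83 changed by 0.65 ± 0.12, Nrp1 by 0.55 ± 0.13 and the activation marker Cd83 by 0.99 ± 0.17. Gpr83 was not called without NM library 1 (smallest change 0.53), and Nrp1 was not called without TBM library 2 or NM library 2 (smallest change 0.36). The part of admixed Treg in these values was not tested.

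**Figure D2:**
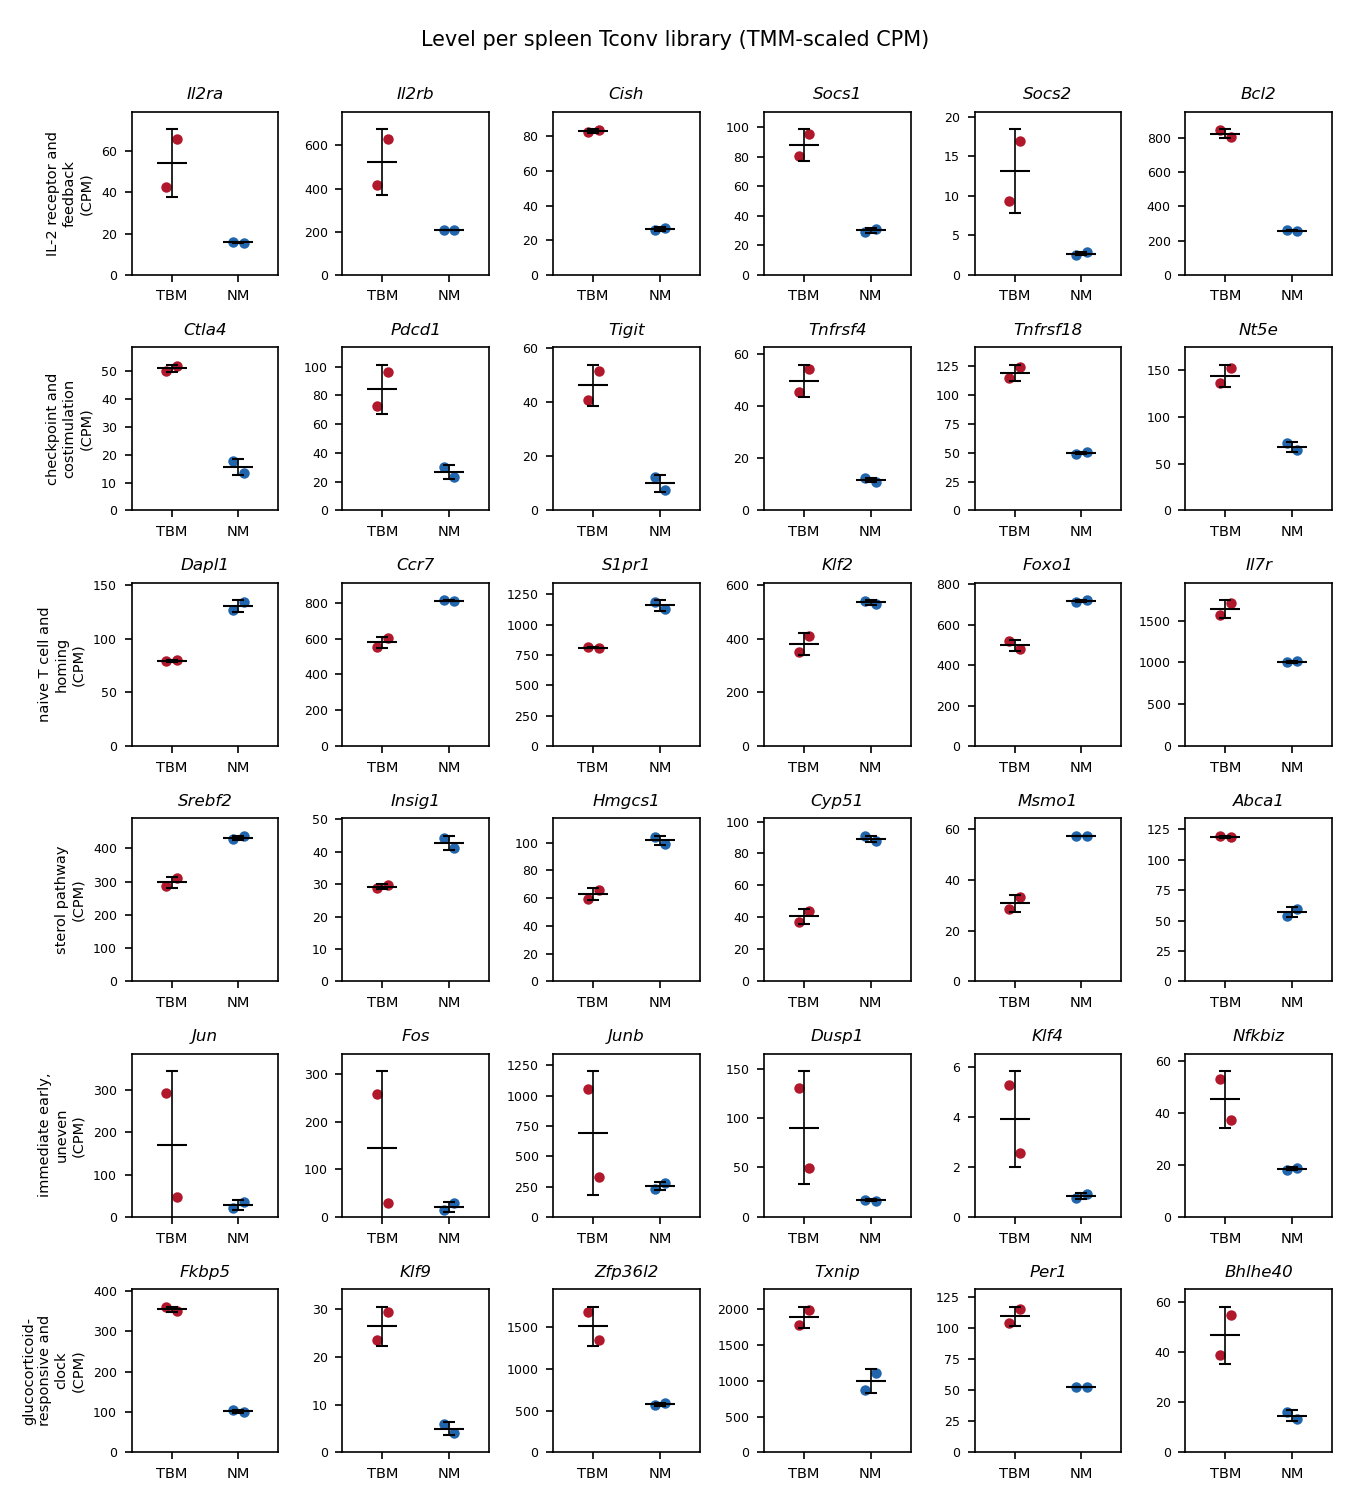
Each panel is 1 gene, with the level of each spleen Tconv library in TMM-scaled CPM on a vertical axis that starts at 0. Points are libraries, the horizontal mark is the mean and the bar is ± SD (n = 2), drawn only down to 0. In the row of immediate early genes Jun, Fos, Junb and Dusp1 the high TBM mean comes mainly from library 1, while Bcl2, Cish and Fkbp5 have nearly equal libraries within a group.

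T follicular helper genes were higher in TBM, with 8 of 19 tested members called and none lower (median 0.53), although the lineage factor Bcl6 was not (−0.21 ± 0.12, adjusted p = 0.267). Il21, the cytokine of these cells, had 29.03 and 22.1 CPM in TBM Tconv, against 12.7 and 5.77 CPM in NM Tconv (1.47 ± 0.38). Cxcr5, the receptor that guides cells into follicles, had 106 and 106 CPM in TBM Tconv, against 74.8 and 49.9 CPM in NM Tconv (0.77 ± 0.23). Il21 was not called without TBM library 1, TBM library 2 or NM library 2 (smallest change 1.01), and Cxcr5 was not called without TBM library 1, TBM library 2 or NM library 2 (smallest change 0.50). Tnfsf8, the CD30 ligand (0.86 ± 0.09), and Angptl2 (1.03 ± 0.17) were called with each library left out. Tox2, a factor of the same helper cells, rose by 1.58 ± 0.32 and was not called without NM library 2 (smallest change 1.29). With a library left out, 5 to 8 members of the list were called higher.

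Other helper lists held fewer calls, and the T helper 1 factor Tbx21 did not pass the test. Among T helper 1 genes 5 of 21 were higher and 1 was lower. Il12rb2, the inducible chain of the interleukin 12 receptor, had 22.1 and 39.5 CPM in TBM Tconv, against 7.64 and 9.16 CPM in NM Tconv (1.88 ± 0.25), and Il18rap, a chain of the interleukin 18 receptor, had 43.1 and 63.3 CPM in TBM Tconv, against 24.3 and 29.2 CPM in NM Tconv (0.99 ± 0.22). Il18rap was not called without TBM library 2 or NM library 1 (smallest change 0.68). Tbx21 had a log2 fold change of 0.29 ± 0.19 (adjusted p = 0.349) and Ifng of 0.73 ± 0.24 (adjusted p = 0.0607). Ccr8, a chemokine receptor in the T helper 2 list, had 4.01 and 6.24 CPM in TBM Tconv, against 1.27 and 1.34 CPM in NM Tconv (1.99 ± 0.27), one of 3 higher members of 9 tested. In the T helper 17 list 5 of 15 were higher, among them Tmem176b (1.55 ± 0.17) and Rora (0.70 ± 0.12), and 1 was lower (Il21r).

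Some cytotoxic and killer receptor genes were higher, and more so in TBM library 2. Of 22 tested members 8 were higher and 1 was lower (Lamp1). Gzmb, the protease granzyme B, had 7.56 and 15.2 CPM in TBM Tconv, against 1.53 and 0.763 CPM in NM Tconv (3.34 ± 0.49, adjusted p = 0.000985). Klrk1, which encodes the activating receptor NKG2D, had 29.6 and 47.5 CPM in TBM Tconv, against 9.73 and 9.30 CPM in NM Tconv (2.02 ± 0.23), and Klrc1, which encodes NKG2A, had 12.1 and 16.2 CPM in TBM Tconv, against 3.21 and 3.29 CPM in NM Tconv (2.12 ± 0.32). Klrb1c (NK1.1) had 42.7 and 73.1 CPM in TBM Tconv, against 20.9 and 19.1 CPM in NM Tconv (1.54 ± 0.30), and Zbtb16, the transcription factor PLZF of innate-like T cells, had 10.6 and 19.5 CPM in TBM Tconv, against 5.91 and 6.34 CPM in NM Tconv (1.30 ± 0.33). Klrb1c was not called without TBM library 2 or NM library 2 (smallest change 1.09) and Zbtb16 was not called without TBM library 2, NM library 1 or NM library 2 (smallest change 0.79), while Gzmb, Klrk1 and Klrc1 were called each time. The summed level of 12 natural killer cell markers, to which Klrb1c belongs, was 69.5 and 103 CPM in TBM Tconv, against 48.8 and 42.6 CPM in NM Tconv, with members at 0 counts numbering 2 and 2 in TBM Tconv and 4 and 3 in NM Tconv. The defining marker Ncr1 had 4 and 15 counts in TBM Tconv, against 5 and 4 counts in NM Tconv. Summed B cell markers came to 35.97 and 43.1 CPM in TBM Tconv, against 24.4 and 24.98 CPM in NM Tconv, with Ms4a1 at 0 counts throughout, and summed neutrophil markers to 10.6 and 20.1 CPM in TBM Tconv, against 6.94 and 5.92 CPM in NM Tconv. The part of admixed cells in the killer receptor values was not tested.

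Part of the genes of naive cells and of lymphoid homing fell, by modest amounts. Of 20 tested members 8 were lower and 2 higher (median −0.30), and 5 to 6 were lower with 1 library left out. Ccr7, the lymph node homing receptor, had 555 and 601 CPM in TBM Tconv, against 814 and 809 CPM in NM Tconv (−0.49 ± 0.08). S1pr1, the receptor for exit into lymph, had 813 and 808 CPM in TBM Tconv, against 1191 and 1129 CPM in NM Tconv (−0.52 ± 0.12). Klf2, which keeps S1pr1 on, had 351 and 409.6 CPM in TBM Tconv, against 542 and 529 CPM in NM Tconv (−0.49 ± 0.10), and Foxo1, which acts upstream of it, had 517 and 479 CPM in TBM Tconv, against 714 and 721 CPM in NM Tconv (−0.53 ± 0.07). The groups did not overlap in any of the 4, as in every called gene and 61.8% of all tested genes. The largest of these falls was 0.53 on the log2 scale. Dapl1 (−0.71 ± 0.10), Actn1 (−0.62 ± 0.11) and the T cell factor Lef1 (−0.44 ± 0.12) were lower too. Il7r and the gut homing receptor Ccr9 (0.68 ± 0.20) were the members that rose. S1pr1 was not called without any 1 of the 4 libraries (smallest change −0.48), and so was Lef1, at −0.40. Ccr9 was not called without TBM library 2, NM library 1 or NM library 2 (smallest change 0.42), and Klf2 was not called without TBM library 1 (smallest change −0.39).

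Memory and activation markers split. In that list 10 of 35 were higher and 9 lower. Besides the cytokine and costimulatory receptors above, Cd44 had 193 and 232 CPM in TBM Tconv, against 156 and 135 CPM in NM Tconv (0.55 ± 0.09), Maf, a factor of follicular helper and interleukin 10-producing cells, had 92.5 and 92.7 CPM in TBM Tconv, against 64.6 and 48.8 CPM in NM Tconv (0.71 ± 0.13), and Icos changed by 0.36 ± 0.06. The lower members were the adhesion genes Itgb1 and Itgb7, the calcium-binding genes S100a10 and S100a13, and Cd40lg, Crip1, Emp3, Lgals1 and Vim. Emp3, a small membrane protein, had 136 and 141 CPM in TBM Tconv, against 217 and 219 CPM in NM Tconv (−0.65 ± 0.06), the lectin Lgals1 had 69.01 and 91.9 CPM in TBM Tconv, against 125 and 135 CPM in NM Tconv (−0.69 ± 0.19), and the intermediate filament gene Vim 349.5 and 386 CPM in TBM Tconv, against 513 and 529 CPM in NM Tconv (−0.50 ± 0.15). Emp3 and Cd44 were called with each library left out, while Lgals1 was not called without TBM library 1, NM library 1 or NM library 2 (smallest change −0.50) and Vim was not called without any 1 of the 4 libraries (smallest change −0.43). Maf was not called without NM library 2 (smallest change 0.52) and Icos was not called without NM library 1 (smallest change 0.31). Among 28 chemokine and trafficking receptors 5 were higher and 8 lower, the largest fall of a well-counted one being in Gpr183, the oxysterol receptor that positions cells in the spleen, with 97.00 and 122 CPM in TBM, against 181 and 173 CPM in NM (−0.69 ± 0.12).

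Proximal T cell receptor genes were slightly lower in 8 of 26 cases (30.8%) and higher in 2. With library-size scaling 6 were lower, and fewer than 8 were with any 1 library left out. The members summed to 16420 to 17400 CPM per library. Among all tested genes above 8 log2 CPM 28.8% were lower, and the part of level in these calls was not tested. Lck, the first kinase of the cascade, had 1029.6 and 1039 CPM in TBM Tconv, against 1327 and 1309 CPM in NM Tconv (−0.35 ± 0.07), and Themis, a signalling adaptor of developing and naive T cells, had 254 and 256 CPM in TBM Tconv, against 347 and 338 CPM in NM Tconv (−0.42 ± 0.07). Cd5, which dampens receptor signals, changed by −0.33 ± 0.07 and was not called without TBM library 1 or NM library 2 (smallest change −0.30). The 2 higher members were Ptpn22, a phosphatase that restrains receptor signalling, with 527 and 538 CPM in TBM, against 279 and 262 CPM in NM (0.98 ± 0.10), and the phospholipase Plcg1 with 379 and 366 CPM in TBM, against 279 and 271 CPM in NM (0.44 ± 0.08). Cd3e was not called (−0.18 ± 0.07, adjusted p = 0.103).

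Immediate early and receptor-induced genes were higher in 15 of 44 cases and lower in 3, but the best known of them differed between the TBM libraries. Jun had 294 and 46.8 CPM in TBM Tconv, against 20.6 and 36.2 CPM in NM Tconv, so library 1 stood far above the other 3 libraries. Its change of 2.57 ± 0.81 (adjusted p = 0.0467) dropped to 0.71 without that library and was then not called. Junb had 1052 and 329 CPM in TBM Tconv, against 230.1 and 277 CPM in NM Tconv, with a change of 1.44 ± 0.40 that was 0.37 without library 1 and not called. Jun and Junb were also not called without NM library 1, or without NM library 2. Fos was not called (259 and 29.1 CPM in TBM, against 14.3 and 28.8 CPM in NM, adjusted p = 0.0727). Dusp1, a phosphatase of stress-activated kinases, had 131 and 49.6 CPM in TBM Tconv, against 17.5 and 16.5 CPM in NM Tconv (2.40 ± 0.41). It was still called without library 1, at 1.54. Other members rose evenly in both TBM libraries. Tnfaip3, an inhibitor of NF-kB signalling, had 209.9 and 199.5 CPM in TBM Tconv, against 100.4 and 107 CPM in NM Tconv (0.98 ± 0.12), and Rgs1, a brake on chemokine receptor signalling, had 34.7 and 34.7 CPM in TBM Tconv, against 14.9 and 12.02 CPM in NM Tconv (1.37 ± 0.19). Egr3, Btg2 and Klf6 were the lower members, and with 1 library left out 8 to 15 members were higher. Mki67, the proliferation marker, had 15.3 and 21.7 CPM in TBM Tconv, against 14.8 and 14.7 CPM in NM Tconv and was not called.

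Glucocorticoid-responsive genes were higher in 11 of 23 cases and lower in 2, with a median of 0.46. Fkbp5, a cochaperone of the glucocorticoid receptor (chromosome 17, 28399094 to 28517527), had 359 and 349.9 CPM in TBM Tconv, against 105 and 99.8 CPM in NM Tconv, a change of 1.79 ± 0.14 (adjusted p = 1.14e-05). Klf9 had 23.5 and 29.3 CPM in TBM Tconv, against 6.01 and 3.96 CPM in NM Tconv (2.41 ± 0.20), and Zfp36l2, an RNA-binding protein that promotes messenger RNA decay, had 1679 and 1346 CPM in TBM Tconv, against 566 and 589 CPM in NM Tconv (1.39 ± 0.17). Txnip, an inhibitor of thioredoxin and of glucose uptake, had 1780.1 and 1990.2 CPM in TBM Tconv, against 874 and 1109 CPM in NM Tconv (0.93 ± 0.11). All 4 were called with each library left out. The receptor gene Nr3c1 was not called, and Tsc22d3, a well-known target, had an uneven NM pair at 583 and 703 CPM in TBM, against 366 and 568 CPM in NM (0.46 ± 0.23, adjusted p = 0.199). Tle4 and Klf13 were the lower members, and with library-size scaling neither was called. With a library left out, 8 to 11 members were higher. Il7r, Per1, Zbtb16, Bcl2l11 and Dusp1, which appear in other groups above and below, are members as well.

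Clock genes were higher in 10 of 22 cases and lower in none (median 0.31), and fewer were called higher with any 1 library left out. Per1, a repressor of the core clock, had 104 and 115 CPM in TBM Tconv, against 52.7 and 52.5 CPM in NM Tconv (1.06 ± 0.11, adjusted p = 8.87e-05), and Bhlhe40, which competes at the same promoter sites, had 38.9 and 55.03 CPM in TBM Tconv, against 16.2 and 13.2 CPM in NM Tconv (1.68 ± 0.22). Nfil3 had 7.19 and 9.43 CPM in TBM Tconv, against 4.18 and 2.77 CPM in NM Tconv (1.27 ± 0.21), and the repressor genes Per2, Per3 and Ciart changed by 0.61 ± 0.17, 1.19 ± 0.32 and 1.02 ± 0.29. The 2 TBM libraries exceeded both NM libraries in all of these. Every called gene and 61.8% of all tested genes likewise had libraries that did not overlap. Per2 and Ciart kept no call when a library was left out, at 0.57 and 0.88 at the least, and Per3 was not called without TBM library 2 or NM library 2 (smallest change 0.90). The labels give no time of day for the sampling, so its part was not tested.

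Promoter windows of Per1 and Ciart are shown with the E-box, CACGTG, in capitals, since clock activators bind this palindromic motif.
Per1 (chr11:69098699-69098998, plus strand): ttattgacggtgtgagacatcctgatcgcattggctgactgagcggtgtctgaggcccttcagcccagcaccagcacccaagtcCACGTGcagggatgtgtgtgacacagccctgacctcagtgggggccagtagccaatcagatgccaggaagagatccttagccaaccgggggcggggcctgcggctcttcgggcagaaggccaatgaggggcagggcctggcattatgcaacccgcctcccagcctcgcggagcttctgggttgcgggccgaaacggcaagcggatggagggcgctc
Ciart (chr3:95882179-95882478, minus strand): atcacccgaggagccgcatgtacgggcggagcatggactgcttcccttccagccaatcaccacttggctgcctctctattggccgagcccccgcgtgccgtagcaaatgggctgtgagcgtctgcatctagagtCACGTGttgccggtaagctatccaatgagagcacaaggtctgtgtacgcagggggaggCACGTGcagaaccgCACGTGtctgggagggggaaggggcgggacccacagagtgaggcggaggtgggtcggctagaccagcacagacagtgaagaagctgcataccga
The Per1 window shown holds 1 E-box and the Ciart window 3. Per1 has another window (chr11:69099902-69100201), which holds none. The 8 higher clock genes with a window have 11 windows, of which 4 held the motif, against 7.15% of all windows.

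Sterol genes were the group with the largest share of decreases. Of 26 tested members of cholesterol synthesis and uptake, 17 were lower and 1 was higher (median −0.43). With 1 library left out, 10 to 15 were lower, and with library-size scaling 13 were. Srebf2, the transcription factor that drives the pathway, had 287 and 310.1 CPM in TBM Tconv, against 428 and 437 CPM in NM Tconv (−0.54 ± 0.06, adjusted p = 0.00016). Along the pathway, Hmgcs1 had 59.7 and 66.02 CPM in TBM Tconv, against 104 and 99.3 CPM in NM Tconv (−0.69 ± 0.11). The squalene epoxidase gene Sqle changed by −0.67 ± 0.15 and Msmo1 by −0.90 ± 0.14. Insig1, a sterol-regulated retention protein for the same factor, had 28.7 and 29.8 CPM in TBM Tconv, against 44.3 and 41.2 CPM in NM Tconv (−0.55 ± 0.09). The member that rose was Abca1, the exporter of cellular cholesterol, with 119.6 and 118 CPM in TBM, against 53.8 and 59.7 CPM in NM (1.07 ± 0.08). Every gene named in this group had both TBM libraries on the same side of both NM libraries, as had every called gene and 61.8% of all tested genes. Sqle was not called without TBM library 1 or NM library 1 (smallest change −0.51), and the others named here were called each time.

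Fatty acid genes showed no common direction, with 2 higher and 3 lower of 29. Cpt1a, which lets fatty acids into mitochondria for oxidation, had 216 and 209 CPM in TBM Tconv, against 105 and 126 CPM in NM Tconv (0.88 ± 0.12), and the lipase Pnpla2 changed by 0.49 ± 0.09. Fasn, the fatty acid synthase, had 293 and 299 CPM in TBM Tconv, against 343 and 379.7 CPM in NM Tconv (−0.29 ± 0.07) and was not called without TBM library 1, TBM library 2 or NM library 2 (smallest change −0.21). Among glycolysis and hypoxia genes 3 of 31 were higher and 3 lower, with Hif1a, the oxygen-regulated factor, at 477 and 483 CPM in TBM, against 297 and 268 CPM in NM (0.77 ± 0.09).

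More interferon gamma-inducible genes were lower than higher, while calls among type I interferon genes were near the share over all genes. Of 37 tested gamma-inducible members 16 were lower and 4 higher (median −0.26). With 1 library left out, 6 to 13 were lower, and with library-size scaling 10 were. Gbp2, a guanylate-binding protein, had 123 and 131 CPM in TBM Tconv, against 185 and 195 CPM in NM Tconv (−0.58 ± 0.08, adjusted p = 0.000865), Irf1 had 233 and 258 CPM in TBM Tconv, against 327 and 333 CPM in NM Tconv (−0.43 ± 0.09), and B2m, the light chain of class I molecules, had 3729.5 and 3929 CPM in TBM Tconv, against 5039.7 and 4883 CPM in NM Tconv (−0.37 ± 0.09). Irf1 was not called without TBM library 1, NM library 1 or NM library 2 (smallest change −0.36), and B2m was not called without any 1 of the 4 libraries (smallest change −0.34). The GTPase genes Tgtp1, Tgtp2, Igtp and Irgm2 and the immunoproteasome genes Psmb9, Psmb10, Psme1 and Psme2 were lower as well, and the higher members were Socs1, Nlrc5, Gbp11 and Cxcl10. Gbp11 (1.09 ± 0.31) was not called without TBM library 1, NM library 1 or NM library 2 (smallest change 0.86). Cxcl10 (1.03 ± 0.33) was not called without TBM library 1, TBM library 2 or NM library 2 (smallest change 0.64), nor with limma-voom, the robust fit or DESeq2 size factors. The Gbp and Tgtp families have near-identical copies, so reads shared between copies make their values uncertain. In the type I list 4 of 54 were higher and 4 lower (7.41% each), shares at or below those over all tested genes (9.74% higher and 7.49% lower). Mx1, an antiviral GTPase, had 5.94 and 9.02 CPM in TBM Tconv, against 2.96 and 2.48 CPM in NM Tconv (1.47 ± 0.27), and Irf7 95.96 and 110.4 CPM in TBM Tconv, against 68.6 and 73.1 CPM in NM Tconv (0.54 ± 0.15), while Isg15 was not called. Mx1 was called each time a library was left out, and Irf7 was not called without any 1 of the 4 libraries (smallest change 0.44).

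Promoter windows of the GTPase genes Igtp, Irgm2 and Tgtp1 are shown because a gamma-activated site and an interferon-stimulated response element lie at the same spacing in them. Capitals mark both motifs, the first searched as TTCNNNGAA and the second as GAAANNGAAA on both strands.
Igtp (chr11:58199306-58199605, plus strand): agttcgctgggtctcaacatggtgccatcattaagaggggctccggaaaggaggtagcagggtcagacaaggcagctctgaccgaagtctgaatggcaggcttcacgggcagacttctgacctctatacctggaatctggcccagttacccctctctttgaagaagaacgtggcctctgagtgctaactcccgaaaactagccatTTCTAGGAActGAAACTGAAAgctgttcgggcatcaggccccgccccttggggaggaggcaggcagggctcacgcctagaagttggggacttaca
Irgm2 (chr11:58214727-58215026, plus strand): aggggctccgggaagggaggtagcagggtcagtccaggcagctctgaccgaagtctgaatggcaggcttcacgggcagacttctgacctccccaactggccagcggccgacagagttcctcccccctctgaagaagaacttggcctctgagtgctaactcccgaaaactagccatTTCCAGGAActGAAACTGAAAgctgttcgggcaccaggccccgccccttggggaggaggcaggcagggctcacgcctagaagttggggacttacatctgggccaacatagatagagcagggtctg
Tgtp1 (chr11:48992197-48992496, minus strand): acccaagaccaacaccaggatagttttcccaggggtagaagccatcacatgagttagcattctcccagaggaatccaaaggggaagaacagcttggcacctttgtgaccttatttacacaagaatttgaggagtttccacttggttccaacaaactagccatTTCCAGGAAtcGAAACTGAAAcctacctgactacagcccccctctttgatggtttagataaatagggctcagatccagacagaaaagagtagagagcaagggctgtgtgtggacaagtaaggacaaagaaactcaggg
In these 3 windows, and in that of Tgtp2, the first base of the response element lies 11 bases after the first base of the gamma-activated site, a spacing found in 5 of all 32841 windows. The 4 genes belong to 1 family and share sequence. The 14 lower members with a window have 17 windows, of which 8 held the response element, and so did both windows of higher members, Socs1 and Cxcl10. It occurs in 3.44% of all windows.

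Part of the chaperone and secretory-pathway genes were lower, by small amounts. In the heat shock list 10 of 20 were lower and none higher (median −0.37). Hsph1 had the largest change of these 10, at −0.67, which ranged from −0.42 to −0.97 with 1 library left out. Hsp90aa1 had 106 and 91.5 CPM in TBM Tconv, against 138 and 139.9 CPM in NM Tconv (−0.49 ± 0.08), Chordc1, a partner of HSP90, had 144 and 121 CPM in TBM Tconv, against 191 and 176 CPM in NM Tconv (−0.47 ± 0.08), and Hspd1, the mitochondrial chaperonin, had 93.4 and 91.03 CPM in TBM Tconv, against 119 and 112 CPM in NM Tconv (−0.32 ± 0.06). Hspd1 was not called without NM library 1 (smallest change −0.28). The stress-inducible pair Hspa1a and Hspa1b stayed under 3 CPM and was not called. Of 30 genes of endoplasmic reticulum stress and the amino acid response 12 were lower and none higher, and 5 were lower with library-size scaling. Calr, the chaperone calreticulin, had 574 and 623 CPM in TBM Tconv, against 889 and 827 CPM in NM Tconv (−0.52 ± 0.09), and the amino acid transporter Slc7a5 had 53.9 and 66.4 CPM in TBM Tconv, against 85.2 and 94.9 CPM in NM Tconv (−0.58 ± 0.09). With 1 library left out, 5 to 9 chaperones and 4 to 8 members of the second list were lower.

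Some genes for the respiratory chain and the ribosome were also lower. Of 63 nuclear-encoded members of oxidative phosphorylation 22 were lower and none higher (median −0.24), and of 78 cytosolic ribosomal protein genes 20 were lower and 2 higher (median −0.24). Cox6a1, a cytochrome oxidase subunit, had 85.7 and 105 CPM in TBM Tconv, against 134 and 134 CPM in NM Tconv (−0.49 ± 0.09), and Atp5b, the catalytic subunit of ATP synthase, had 675 and 725 CPM in TBM Tconv, against 877 and 928 CPM in NM Tconv (−0.37 ± 0.08). The second of these was not called without TBM library 1 or NM library 2 (smallest change −0.32). Rpl15 had 25.4 and 27.8 CPM in TBM Tconv, against 42.2 and 39.1 CPM in NM Tconv (−0.61 ± 0.09). Ribosomal protein genes have many processed copies in the genome, and their low CPM values are uncertain for that reason. Library-size scaling left 10 and 11 lower calls in these lists, and leaving out 1 library left 2 to 19 and 3 to 14. Ribosome biogenesis genes were lower in 6 of 30 cases. Of 10 housekeeping genes 5 were lower and none higher, and 3 were lower with library-size scaling. The direction of change also moved with gene length and level. In the shortest 20% of genes by exon length (63 to 2428 bases) 5.46% were higher and 9.07% lower, and in the longest 20% (7552 to 123179 bases) 13.9% were higher and 5.74% lower. Above 8 log2 CPM 6.86% of genes were higher and 28.8% lower, while from 2 to 4 log2 CPM 15.8% were higher and 2.14% lower. The part of length and level in the results for these and the other lists was not tested.

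Apart from the apoptosis list, the remaining lists held few calls. The interleukin 33 receptor gene Il1rl1, which is central to the series, had 71 and 31 counts in TBM Tconv, against 15 and 28 counts in NM Tconv and was not called (1.22 ± 0.73, adjusted p = 0.283), Il33 had 1 count in the 4 libraries together, and Il1rap, the coreceptor, had 25.5 and 25.1 CPM in TBM Tconv, against 27.5 and 26.4 CPM in NM Tconv. In that list 2 of 15 were higher, the kinase genes Irak2 (0.50 ± 0.09) and Irak1 (0.21 ± 0.06), the second being not called without TBM library 1, NM library 1 or NM library 2 (smallest change 0.18). In the apoptosis list 8 of 31 were higher (25.8%) and 4 lower (12.9%), both above the shares over all tested genes. With library-size scaling 8 were higher and 2 lower, and fewer were called in each direction with any 1 library left out. Bcl2l11, which encodes the pro-apoptotic protein BIM, rose beside Bcl2 with 136 and 150.2 CPM in TBM, against 99.5 and 108 CPM in NM (0.47 ± 0.07), as did Bbc3 (PUMA) with 32.8 and 47.3 CPM in TBM, against 16.00 and 21.7 CPM in NM (1.09 ± 0.20). The 4 KMT2 histone methyltransferase genes of the chromatin list were higher, Kmt2d by 0.74 ± 0.09, Kmt2a by 0.65 ± 0.11, Kmt2c by 0.46 ± 0.12 and Kmt2b by 0.38 ± 0.07. These 4 were the only higher members of the 37 tested (10.8%), a share near the 9.74% over all tested genes, and 2 were lower. All 4 belong to the longest 20% of genes by exon length, of which 13.9% were higher. Kmt2c was not called without TBM library 1 or NM library 2 (smallest change 0.25). TGF-beta response genes were higher in 2 of 20 cases (10.0%) and lower in 1 (5.0%), near the shares over all tested genes. The higher members were the integrin chain Itgb8 (2.22 ± 0.32) and Pmepa1 (0.83 ± 0.11). Replication genes were higher in 2 and lower in 2 of 36, mitotic genes lower in 1 of 37, and class II genes higher in 1 of 10 (Cd74). Cd74 had 7.56 and 15.5 CPM in TBM Tconv, against 5.25 and 6.29 CPM in NM Tconv and was not called without TBM library 2, NM library 1 or NM library 2 (smallest change 0.38).

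Spleen Treg of the same 2 kinds of mice were set beside spleen Tconv to find changes that differed between them. In TBM Treg against NM Treg 2066 genes were called (15.3%), 918 higher (6.8%) and 1148 lower (8.5%). The 2 comparisons share no library, but whether they share mice was not tested. Deviations from the group mean in Tconv and Treg libraries of the same title number correlated by 0.247 in TBM and 0.183 in NM. With library-size scaling the Treg split was 1281 higher and 645 lower, and with a library left out 512 to 1010 Treg genes were called, 512 without NM Treg library 2. Of the 1316 genes higher in Tconv, 526 were also higher in Treg, which is 40% of the Tconv genes and 57.3% of the Treg genes. Of the 1012 lower in Tconv, 597 were also lower in Treg, 59% and 52%. In Treg the sterol list held 21 lower and 1 higher members of 26, the chaperone list 13 lower of 20, the respiratory list 32 lower of 63 and the glucocorticoid list 10 higher of 23. Fkbp5 changed by 1.16 ± 0.13 in Treg, Per1 by 1.07 ± 0.11, Cyp51 by −1.03 ± 0.13 and Zfp36l2 by 1.40 ± 0.17.

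The difference between the cell types was itself called in 115 genes (0.851%), with the change larger or more positive in Tconv in 85 (0.629%) and in Treg in 30 (0.222%). Leaving out 1 library gave 42 to 79 such genes, 42 without NM Tconv library 2. Interleukin 2 pathway genes were among the 85. Bcl2 changed by 1.67 ± 0.06 in Tconv and had a log2 fold change of 0.14 ± 0.06 in Treg, so that the difference, Tconv minus Treg, was 1.53 ± 0.09 (adjusted p = 3.02e-06). Il2ra, which changed by 1.78 ± 0.16 in Tconv, had 726 and 782 CPM in TBM Treg, against 942 and 1030.1 CPM in NM Treg, a log2 fold change of −0.39 ± 0.14, and a difference of 2.17 ± 0.21 (adjusted p = 0.000264). For Cish the difference was 1.38 ± 0.19, for Socs2 2.76 ± 0.30, for Nt5e 0.99 ± 0.12 and for Tnfrsf4 1.24 ± 0.17, and each of these was called with any of the 8 spleen libraries left out. Il2rb, Socs1 and Ctla4 also differed, by 1.29 ± 0.22, 0.93 ± 0.16 and 0.97 ± 0.17, but each was called in 2 of those 8 fits, with smallest differences of 0.96, 0.80 and 0.78.

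Some of the largest Tconv changes were weak or reversed in Treg. Coro2a had 310.1 and 301 CPM in TBM Treg, against 284 and 294 CPM in NM Treg, with a difference of 3.44 ± 0.19 between the cell types (adjusted p = 2.51e-06). Drc1 rose in Tconv but fell in Treg (−1.70 ± 0.16), with 1.88 and 1.74 CPM in TBM Treg, against 5.65 and 6.14 CPM in NM Treg. Penk, which encodes the opioid precursor proenkephalin, had 11.5 and 14.7 CPM in TBM Tconv, against 2.80 and 2.53 CPM in NM Tconv, and the colony-stimulating factor gene Csf1 had 9.64 and 10.2 CPM in TBM Tconv, against 4.08 and 3.67 CPM in NM Tconv. Their differences were 2.04 ± 0.20 and 1.45 ± 0.15. Gucy1a3 and Gucy1b3, the subunits of the soluble guanylate cyclase that senses nitric oxide, changed by 1.76 ± 0.16 and 1.64 ± 0.20 in Tconv, with differences of 1.99 ± 0.21 and 1.63 ± 0.28. The difference for Gucy1b3 was called in 1 of the 8 fits that left out a library, at 1.49 at the least, and that for Gucy1a3 in all 8.

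Crem, Pde4d, Rgs2 and Fosl2 changed more in Treg than in Tconv. Crem, a cyclic AMP-induced regulator, had 23.7 and 22.2 CPM in TBM Tconv, against 14.1 and 11.8 CPM in NM Tconv (0.82 ± 0.09) and changed by 2.06 ± 0.08 in Treg, a difference of −1.24 ± 0.13 (adjusted p = 0.000312). The phosphodiesterase gene Pde4d changed by 0.53 ± 0.07 in Tconv and 1.56 ± 0.07 in Treg, and the G-protein regulator Rgs2 by 0.51 ± 0.11 and 2.06 ± 0.11. Fosl2, an AP-1 subunit, differed by −1.97 ± 0.25. Within Tconv alone, Rgs2 was not called without TBM library 1 or NM library 1 (smallest change 0.42) and Fosl2 was not called without TBM library 2 or NM library 1 (smallest change 0.45). Cx3cr1 and Epas1 were not called in Tconv (−0.58 ± 0.21 and −0.25 ± 0.13) and were higher in Treg (3.28 ± 0.25 and 2.25 ± 0.16). These 6 differences were called with any of the 8 spleen libraries left out.

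**Figure D3:**
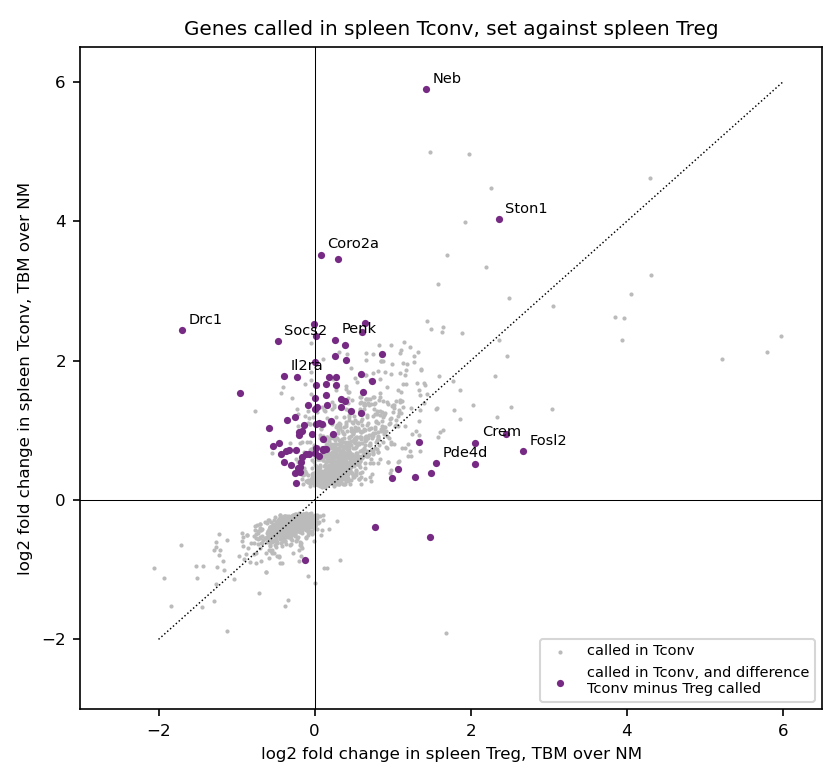
Each point is 1 gene called in spleen Tconv with a mean of at least 0 log2 CPM: the vertical axis is its log2 fold change in Tconv and the horizontal axis that in Treg, both TBM over NM, and the dotted line marks equal change. Purple points are the 88 of these genes whose difference between the cell types was called, and 1 gene lies outside the axes. Coro2a sits at 0.08 on the Treg axis and Drc1 at −1.70, while Crem and Fosl2 lie below the dotted line.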

How the data were processed

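Spleen CD4+ GFP-negative cells were sequenced as stranded poly(A) RNA libraries. Gene counts were used as the authors deposited them, and per the submitters' processing notes STAR and featureCounts made them on mm10. Tool versions and the strand setting were not given in the sources used here. Reads of overlapping genes on opposite strands cannot be told apart where strand was not used. This touches 34 of 227 called named genes, which overlap such a gene by over 200 exon bases, among them Coro2a, Bcl2, Cish and Jun. The overlap was 1519 of 3794 exon bases in Il12rb2 (with Serbp1), 1423 of 3422 in Cd72 (with Tesk1) and 1392 of 3839 in Cables1. In Coro2a it was 329 of 6459.

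All 12 libraries and 6 group means entered 1 fit in edgeR 4.0.16 (R 4.3.3) with 6 residual degrees of freedom, TMM scaling and its filter on low counts, which kept 13509 of 24062 genes. Calls use its quasi-likelihood F test, with Benjamini-Hochberg adjusted p values computed over every tested gene. SE is the log2 fold change divided by the root of F. On simulated counts of 13345 genes for the spleen Tconv comparison, the fit called 94% of 100 genes given a change of 1 on the log2 scale and 67% of 100 given 0.5. It also called 8 genes given no change. The changed genes were drawn only from those above a minimum mean count, with as many raised as lowered. The simulated spread came from the fit's own estimates. These rates therefore do not cover genes with low counts or an uneven split of changes. Alternatives used limma 3.58.1 and DESeq2 1.42.0. Gene places come from GENCODE vM21 on GRCm38 (mm10), and promoter windows from RefSeq.

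The gene lists and the genes they hold were chosen with earlier results of these data known. Named genes are the 12 largest increases and decreases among called genes with a mean of at least 3 log2 CPM, the 6 largest each between 0 and 3, the 5 called members of each list that changed most, and fixed lineage genes. The rankings by size passed over gene models, immunoglobulin and T cell receptor segments, small RNAs and pseudogenes. Other named genes, such as Penk, Csf1, Crem, Plaur, Ifngr1, Srebf2, Ikzf2 and Gbp2, were chosen after their values were seen. A few genes that these rules name are not reported here. Counting intervals cover counting error only and are not given, since replicate spread exceeds it.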

Additional observations from a re-analysis of the deposited data

Results flagged for a closer look

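In 34 named genes the change in spleen Tconv differed from the change in spleen Treg by the test of the difference itself. Over all 13509 tested genes the difference was called in 115 (0.851%), of which 85 were positive. Many of the 34, with every negative one among them, were named after their values were seen, so these counts reflect that choice. Values are the difference of log2 fold changes, Tconv minus Treg. In 27 of the 34 the difference was positive. Among receptors and cytokine signalling genes it was 2.17 for Il2ra, 1.29 for Il2rb, 0.93 for Socs1, 2.76 for Socs2, 1.38 for Cish, 1.53 for Bcl2 and 1.45 for Csf1. For checkpoint and Treg-associated genes it was 0.97 for Ctla4, 1.24 for Tnfrsf4, 0.99 for Nt5e, 1.08 for Gpr83, 0.71 for Ikzf2, 0.94 for Nrp1, 1.83 for Itgb8, 1.14 for Cd83 and 0.72 for Cd44. The BIM gene Bcl2l11 differed by 0.66 and Angptl2 by 1.62.

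Among the remaining genes with a positive difference it was 4.46 for Neb, 4.14 for Drc1, 3.44 for Coro2a, 3.16 for Olfml3, 2.04 for Penk, 1.99 for Gucy1a3, 1.81 for Serpina3f, 1.67 for Ston1 and 1.63 for Gucy1b3. The difference was negative, with a more positive change in Treg, at −3.86 for Cx3cr1, −2.50 for Epas1, −1.97 for Fosl2, −1.55 for Rgs2, −1.24 for Crem, −1.16 for Sgms1 and −1.03 for Pde4d. With each of the 8 spleen libraries left out in turn, 21 of the 34 differences were called every time and none changed sign. The other 13 lost the call at least once. Ston1 was called 7 times, Bcl2l11 4 times and Olfml3 3 times. Cd44, Ctla4, Il2rb, Nrp1 and Socs1 were called 2 times, and Cd83, Gucy1b3, Ikzf2, Itgb8 and Serpina3f once.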

How the results depend on the processing

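The count of 2328 called genes in spleen Tconv became 3651 when the 8 spleen libraries alone were fitted, and 643 (538 higher, 105 lower) when tested against a fold of 1.2. With 1 library left out it ranged from 751 to 1450. The Treg count of 2066 became 3539 with the 8 spleen libraries and ranged from 512 to 1010 with 1 library left out. The 115 differences between the cell types became 213 with DESeq2, 184 without a filter on low counts and 320 with the 8 spleen libraries, and ranged from 42 to 79 with 1 library left out. Every other alternative run kept these 3 counts within 1.5 times. The labels do not say that title numbers pair the libraries, and the deviations of same-numbered TBM and NM Tconv libraries from their group means correlated by 0.0679. Same-numbered Tconv and Treg libraries correlated by 0.247 in TBM and 0.183 in NM spleens. In NM the sample descriptions use other numbers than the titles. There, title library 1 is numbered 1 for Tconv and 2 for Treg, and title library 2 is numbered 3 for both. A replicate block by title number gave 2300 Tconv calls and 141 differences between the cell types. None of the 227 called named genes changed sign under any alternative. Their lost calls numbered 101 against a fold of 1.2, 58 to 90 with 1 library left out, 18 with library-size scaling, 18 with limma-voom, 17 with the robust fit, 10 with DESeq2 and at most 4 under the others. Of the 227, 121 were called with each of the 4 libraries left out. Library-size scaling moved the median over all genes by 0.0661. It turned the sign of the list medians for TGF-beta response, glycolysis and hypoxia, and fatty acid metabolism. Depth limits the lowest levels: of 2127 tested genes with under 40 counts over the 4 libraries, 29 were called higher and 0 lower.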

Other observations

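Some genes from the marker lists of other cells were called in spleen Tconv. Cd72, a surface receptor of B cells, had 19.2 and 23.5 CPM in TBM Tconv, against 12.03 and 13.9 CPM in NM Tconv (0.72 ± 0.13), while Ms4a1 had 0 counts. Ager, a receptor of lung epithelium, had 46 and 55 counts in TBM Tconv, against 15 and 7 counts in NM Tconv (2.15 ± 0.37). Epcam had 4.01 and 3.90 CPM in TBM Tconv, against 2.96 and 1.86 CPM in NM Tconv (0.72 ± 0.22). Spleen Treg libraries of TBM and NM held more Epcam, 24.8 to 28.0 CPM without TMM factors. Of 16 lung and tumour epithelium markers, 10 to 12 had 3 counts or fewer in each spleen Tconv library. Epcam was not called without TBM library 1, TBM library 2 or NM library 2 (smallest change 0.42). Cd8b1 was lower, with 21.6 and 20.7 CPM in TBM, against 29.05 and 32.3 CPM in NM (−0.54 ± 0.10), and was not called without NM library 2 (smallest change −0.46), while Cd8a had 4 and 7 counts in TBM Tconv, against 4 and 2 counts in NM Tconv.

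Among other transcripts, the serpin gene Serpina3g had 40.3 and 68.7 CPM in TBM Tconv, against 18.04 and 14.7 CPM in NM Tconv (1.74 ± 0.25) and Olfml3, a secreted glycoprotein gene, had 213 and 287 counts in TBM Tconv, against 22 and 22 counts in NM Tconv (3.46 ± 0.28). Sgms1, which encodes a sphingomyelin synthase, was lower in TBM Tconv (−0.39 ± 0.07) and higher in TBM Treg (0.77 ± 0.07). Spock2, a proteoglycan gene, had 37.1 and 41.8 CPM in TBM Tconv, against 13.5 and 6.53 CPM in NM Tconv (1.99 ± 0.27). The long noncoding RNA Malat1 had 328 and 235 CPM in TBM Tconv, against 211 and 179 CPM in NM Tconv (0.53 ± 0.17), and it was not called without TBM library 1, NM library 1 or NM library 2 (smallest change 0.27).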
